A study of Homo sapiens with 4 samples.

Results

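Stress granule component transcripts were followed here as 10 mRNAs, those of G3BP1, G3BP2, CAPRIN1, USP10, ATXN2L, PABPC1, TIA1, FMR1, FXR1 and UPF1. The genes were chosen for the known presence of their proteins in stress granules, by gene name, and not for any value measured here. They are 10 of the 62700 genes of the GENCODE annotation on GRCh38, the build of all coordinates below, of which 20046 are protein-coding. Each of the 10 carried crosslinking events in the pooled libraries.

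The study asked which RNAs are bound by poly(proline-arginine), a dipeptide repeat protein made from the expanded C9orf72 repeat of amyotrophic lateral sclerosis and frontotemporal dementia. HEK293T cells, a transformed human embryonic kidney line, were transiently transfected with a doxycycline-inducible PR100 carrying a 3xFLAG tag, induced with 150 ng/ml doxycycline for 24 h and irradiated at 254 nm with 160 mJ/cm2. RNA attached to the peptide was recovered through the FLAG tag and sequenced by iiCLIP, in which reverse transcription stops at the crosslinked nucleotide, so each unique cDNA gives 1 crosslinking event at 1 position. All 4 libraries are of this group, with complexes purified by SDS-PAGE in replicates 1 to 3 and with beads in replicate 4. The peptide was overexpressed, control libraries were not analysed here, and RNA levels were not measured, so a transcript that is more abundant and a transcript that is bound more often cannot be told apart. The labels do not say whether the replicates came from separate cultures, and their spread may be technical.

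Stress granules are cytoplasmic condensates of untranslated mRNA and protein that form when translation initiation stalls. G3BP1 and G3BP2 are the RNA-binding scaffolds that start their assembly, CAPRIN1 binds G3BP and favours assembly, and USP10 binds the same site of G3BP and opposes it. Arginine-rich dipeptide repeats are known to associate with stress granule proteins. The values below concern the mRNAs that encode these proteins and not the proteins or the granules.

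The libraries held 334057, 604816, 125694 and 179636 events in replicates 1 to 4. Those of replicates 3 and 4, as deposited, are below the minimum depth that the methods of the study give for a library, and the reason is not given in the sources used here. The 10 transcripts received 354, 630, 134 and 237 of them on the strand of the gene, 1355 in all or 0.109% of the pooled events. As counts per 1000000 events of the library (CPM), the summed level was 1060, 1042, 1066 and 1319, with a mean of 1122 ± 132 (SD, n = 4). Replicates 1 to 3 lay close together and replicate 4, the library purified with beads, lay above them. On the opposite strand of the same genes there were 15, 34, 9 and 8 events. Such events do not measure RNA recovered without binding, for which the study used non-crosslinked and FLAG-only controls. The log2 ratio of gene strand to opposite strand events was 4.56, 4.21, 3.90 and 4.89, above 0 in 4 of 4 libraries. Unbound RNA of the same genes would also give a ratio above 0, so this ratio does not speak to binding. Of the 66 opposite events, 20 lay in FXR1 and 14 in G3BP2. Replicate 3 stood apart in that its member events were stacked, with 3.44 events per occupied position against 1.51, 1.64 and 1.05 in replicates 1, 2 and 4. Its random barcode was 5 nt long and that of the others 7 nt, and the part of this in the values was not tested.

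At least 200 pooled events, a minimum also used in the methods of the study, were reached by 3 of the 10 transcripts, UPF1 with 221, ATXN2L with 213 and CAPRIN1 with 201. Of the 16880 protein-coding genes with at least 1 event, 4.16% reached this number. USP10 lay just below it with 190 events. PABPC1 had 123, G3BP1 95, FXR1 92, FMR1 88, G3BP2 73 and TIA1 59. All 10 lay above the median protein-coding gene with an event, which had 23, and the median of the 10 was 109. The count of 3 rested on each library, since it was 0 without replicate 1, 2 or 4 and 1 without replicate 3. The study also required low binding in its non-crosslinked and FLAG-only controls. That part was not applied here, so reaching 200 events does not meet its full criterion.

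**Figure D1:**
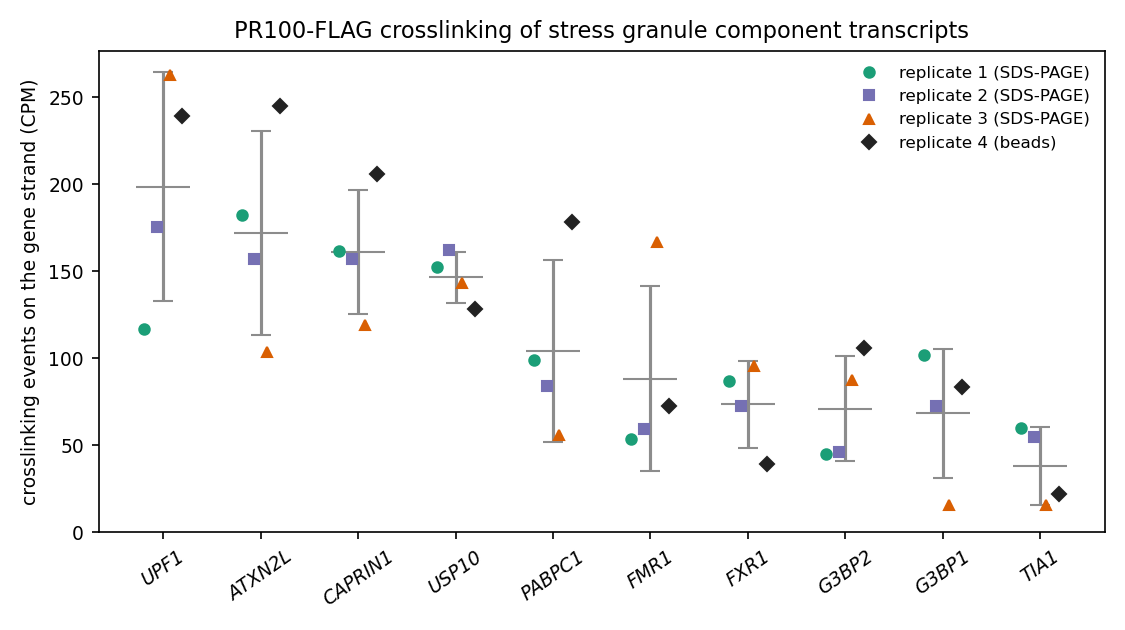
Crosslinking events on the gene strand in CPM for each of the 10 genes, ordered by mean. Coloured points are the 4 libraries, grey lines the mean and bars the SD. UPF1 has the highest mean at 198 CPM and TIA1 the lowest at 38.2 CPM, and the points of neighbouring genes overlap.

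Of the scaffolds, G3BP1 (chr5:151771045-151812911, plus strand) had 102, 72.7, 15.9 and 83.5 CPM in replicates 1 to 4. Its paralog G3BP2 (chr4:75641849-75724589, minus strand) had 44.9, 46.3, 87.5 and 106 CPM. The means were 68.5 ± 37.0 and 71.1 ± 30.4 CPM (SD, n = 4), and the paralogs overlapped, G3BP1 being higher in replicates 1 and 2 and G3BP2 in replicates 3 and 4. G3BP1 had only 2 events in replicate 3, so its low value there is imprecise.

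The partners of G3BP were crosslinked more often. CAPRIN1 (chr11:34051731-34102610, plus strand) had 162, 157, 119 and 206 CPM (161 ± 35.5). USP10 (chr16:84699986-84779922, plus strand) had 153, 162, 143 and 128 CPM (146 ± 14.5), the smallest spread of the 10 genes. Both lay above the ranges of G3BP1, G3BP2, FXR1 and TIA1 in all libraries. This was not particular to them, since UPF1 also lay above the ranges of the same genes. Of the 45 pairs among the 10 genes, 15 had ranges that did not overlap. ATXN2L, the paralog of ataxin-2 and a G3BP-associated stress granule protein (chr16:28822999-28837237, plus strand), had 183, 157, 103 and 245 CPM (172 ± 58.8), lowest in replicate 3 and highest in replicate 4.

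UPF1, the helicase of nonsense-mediated decay (chr19:18831959-18868230, plus strand), had 117, 175, 263 and 239 CPM (198 ± 65.8). In contrast to ATXN2L it was highest in replicate 3 and lowest in replicate 1. PABPC1, the main cytoplasmic poly(A)-binding protein (chr8:100685816-100722809, minus strand), had 98.8, 84.3, 55.7 and 178 CPM (104 ± 52.4), with the highest value in replicate 4. The order of the means was UPF1, ATXN2L, CAPRIN1, USP10, PABPC1, FMR1, FXR1, G3BP2, G3BP1 and TIA1, and each neighbouring pair in this order differed by less than the larger of its SDs.

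FMR1 encodes the translational repressor FMRP that is lost in fragile X syndrome (chrX:147911919-147951125, plus strand), and FXR1 encodes its paralog (chr3:180868141-180982753, plus strand). FMR1 had 53.9, 59.5, 167 and 72.4 CPM (88.2 ± 53.1) and FXR1 had 86.8, 72.7, 95.5 and 39.0 CPM (73.5 ± 24.9). The ranges of the paralogs overlapped, and FMR1 stood out in replicate 3. TIA1, an RNA-binding protein with a prion-like domain (chr2:70209444-70248660, minus strand), had 59.9, 54.6, 15.9 and 22.3 CPM (38.2 ± 22.3), with 2 and 4 events in replicates 3 and 4. All 59 TIA1 events also lie within the annotated span of C2orf42 on the same strand, so they cannot be given to TIA1 alone. None of the events of the other 9 genes lies in another gene of the same strand.

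The events fell in different parts of the transcripts, which were divided into coding sequence, UTRs, other exons (exons of transcripts without an annotated coding sequence) and introns. Of the ATXN2L events, 75.1% (160 of 213) lay in coding sequence, with a 95% exact binomial interval of 68.8 to 80.8%. The share was 48.0% for PABPC1, 47.3% for CAPRIN1, 35.6% for G3BP2, 34.4% for UPF1 and 30.7% for FMR1. It was 30% for USP10, 29.5% for G3BP1, 27.2% for FXR1 and 10.2% for TIA1. The interval of ATXN2L did not meet that of any of the others. These shares are not corrected for region length. ATXN2L has the least intron sequence of the 10 genes, 7695 nt, against 21829 nt in G3BP1, the next, and 102739 nt in FXR1, the most. The part of length in the shares was not tested. Introns held most events of USP10 (62.1%), TIA1 (61.0%) and FXR1 (56.5%), and 9.39% of those of ATXN2L, or 3.95% without replicate 1. Without replicate 2, the deepest library, the coding share fell to 17.6% for G3BP1 and 21.7% for UPF1. Coding events outnumbered intron events in 3 of the 10 genes, ATXN2L, CAPRIN1 and PABPC1, and in 6 without replicate 3, which added G3BP1, G3BP2 and UPF1, or 5 without replicate 1. Such intervals cover counting error only.

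Untranslated regions carried a marked share in a few genes. G3BP1 had 33.7% of its events in the 3′ UTR, with 15, 12, 0 and 5 events in replicates 1 to 4. PABPC1 had 19.5% in the 5′ UTR, with 6, 10, 6 and 2 events, so this was seen in all libraries. FMR1 had 26.1% in the 3′ UTR, but 20 of these 23 events came from replicate 3, and without that library the share was 4.48% and the coding share of FMR1 40.3%. UPF1 had 0, 6, 9 and 2 events in the 5′ UTR, 9 of the 17 from replicate 3, and without it the share went from 7.69% to 4.26%.

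Summed over the 10 genes, coding sequence held 28.5%, 48.7%, 17.9% and 53.6% of the events in replicates 1 to 4. Over all other protein-coding genes it held 19.2%, 31.0%, 23.8% and 41.6%. The 10 genes were higher in replicates 1, 2 and 4 and lower in replicate 3, with a mean difference of 8.27 ± 10.1 percentage points (SD, n = 4), which is less than its own SD. The mean difference was 13 points without replicate 3, 5.13 without replicate 2 and 2.17 without ATXN2L. It was -6.72 points when positions that are UTR in any transcript were counted as UTR, so its direction depended on the order in which overlapping annotations were used. The intron share of the 10 genes was 16.6 ± 6.86 points lower than that of the other genes, and lower in 4 of 4 libraries. Their 3′ UTR share was 5.22 ± 2.16 points higher, again in 4 of 4. These shares are not corrected for region length. The 10 genes have 434166 nt of intron and 23338 nt of coding sequence, and the other genes 1267724838 and 36409033 nt.

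Per length, coding sequence of the 10 genes had 13, 21.7, 8.18 and 30.3 CPM per kb in replicates 1 to 4, and their introns had 1.12, 0.731, 1.34 and 0.603. Coding sequence was thus the denser in each library, and least so in replicate 3. The other protein-coding genes had 3.75, 5.45, 4.08 and 8.60 CPM per kb of coding sequence and 0.370, 0.257, 0.299 and 0.232 per kb of intron. The 10 genes were denser than the others by 3.24 ± 0.861 fold in coding sequence, 2.91 ± 0.618 fold in the 3′ UTR and 3.23 ± 0.841 fold in introns, each above 1 in 4 of 4 libraries. The other genes include many that may not be expressed in these cells. The log2 ratio of coding to intron density was 3.54, 4.89, 2.61 and 5.65 for the 10 genes and 3.34, 4.4, 3.77 and 5.21 for the others, with means of 4.17 ± 1.36 and 4.18 ± 0.81. The difference between these ratios, -0.01 ± 0.78, was far smaller than its SD, so that a greater excess in coding sequence than in introns was not detectable with 4 libraries.

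Coding density was also compared gene by gene. ATXN2L had 26.7, 38.7, 26.6 and 49.7 CPM per kb of coding sequence in replicates 1 to 4 (35.4 ± 11.1), rank 396 of 16880 protein-coding genes. CAPRIN1 had 19.5, 40.1, 11.1 and 67.5 (34.6 ± 25.1), rank 414. PABPC1 had 17.8, 18.9, 0 and 53.5 (22.6 ± 22.4), with no coding event in replicate 3. These 3 genes led, but CAPRIN1 and PABPC1 varied several fold between libraries. UPF1 (14.7 ± 8.38), USP10 (14.7 ± 10.3) and G3BP2 (14 ± 9.27) were alike, followed by FMR1 (9.94 ± 7.71), FXR1 (9.62 ± 2.65), G3BP1 (8.44 ± 7.57) and TIA1 (3.20 ± 2.16). The median over all protein-coding genes with an event was 2.15 CPM per kb, and 9 of the 10 genes lay among the densest 25%, TIA1 being the exception.

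The uniqueness of the sequence limits what could be counted, since the authors kept only reads that mapped to a single place. Of the 35-nt stretches of coding sequence, 40.2% of those of PABPC1 and 33.9% of those of USP10 also occur in transcripts of other genes, which for PABPC1 include several annotated PABPC1 pseudogenes. The share was 7.11% for G3BP1, 6.30% for ATXN2L, 5.25% for FXR1 and 0 for the others. The effect of this on the counts of PABPC1 and USP10 was not tested.

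Significant clusters of crosslinked positions, called by the authors on the pooled libraries, had their summit in 7 of the 10 genes, against 13.4% of the protein-coding genes with an event. There were 13 such clusters with 10 to 20 cDNAs each, 8 in coding sequence, 2 in the 3′ UTR, 2 in the 5′ UTR and 1 in an intron. ATXN2L held 4 of them, CAPRIN1, PABPC1 and UPF1 2 each, and G3BP2, FMR1 and USP10 1 each. None was listed in G3BP1, FXR1 or TIA1. Clusters took up 12.8% of the events of the 10 genes and 9.11% of those of the other protein-coding genes.

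Of the 13 clusters, 9 had cDNAs from 3 or 4 libraries and 4 from 1 or 2. The strongest, in the 3′ UTR of FMR1 (chrX:147949503-147949567, plus strand), had 20 cDNAs, 19 of them from replicate 3. The cluster in the first intron of USP10 (chr16:84707012-84707142, plus strand) drew 10 of its 12 cDNAs from replicate 3, all 10 of the ATXN2L 3′ UTR cluster (chr16:28837055-28837081) came from replicate 1, and 12 of the 14 of the UPF1 coding cluster came from replicate 2. In these 4 of the 13 clusters, 1 library gave over 75% of the cDNAs. Only the ATXN2L cluster in exon 16 (chr16:28834066-28834189) had cDNAs from all 4 libraries, 3, 14, 1 and 1 in replicates 1 to 4. In the cluster lists of single libraries, 3 of the 10 genes had a cluster, namely FMR1 in replicate 3, UPF1 in replicate 2 and ATXN2L in replicates 1 and 2.

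To show the RNA that was crosslinked, the 30 nt from 5 nt before to 24 nt after the summit of the strongest coding cluster are given for 4 genes, read from GRCh38 in the direction of the transcript. They lie at chr4:75645533-75645562 (minus strand, exon 12 of G3BP2, cluster of 11 cDNAs), chr11:34071931-34071960 (plus, exon 4 of CAPRIN1, 14 cDNAs), chr19:18857450-18857479 (plus, exon 15 of UPF1, 14 cDNAs) and chr16:28834061-28834090 (plus, exon 16 of ATXN2L, 19 cDNAs). The first 4 bases of the ATXN2L sequence belong to the intron before the exon. Capitals would mark GANGA motifs on the transcript strand, that is GAAGA or its forms with G or C as the middle base, and none of the 4 sequences holds one. The sequences end 24 nt after the summit, short of the 30 nt downstream that is counted as near below. Within those 30 nt, GAGGA begins 339 nt from the start codon of CAPRIN1, whose summit is in codon 105. In G3BP2, GAAGA begins at 1352 nt, with the summit in codon 441. No motif begins there in UPF1 or ATXN2L. PABPC1 also had a coding cluster, of 14 cDNAs, whose sequence is not reported here.
G3BP2: aattgtgggtggtggaatgatgcgtgatcg
CAPRIN1: aataatttggagtttgcaaaagaattacag
UPF1: tccagtaccggatgcaccctgcactcagcg
ATXN2L: gcagaataaatccaccagtaccccaacttc

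GANGA motifs are the purine-rich pentamers that the study examined around PR100 crosslinks. It found GAAGA by a search for pentamers enriched at the significant crosslinking sites of its PR100 libraries. The motif thus comes from these same data, and events near it are not independent support for it. In reading frame they can encode acidic residues, since GAA and GAG specify glutamate and GAC specifies aspartate. In the canonical coding sequences, FMR1 held 27 such motifs (14.2 per kb), G3BP2 20 (13.8 per kb) and G3BP1 19 (13.6 per kb). These 3 genes lay in the most motif-rich 10% of 19287 coding sequences, whose median was 6.14 per kb. UPF1, with a longer coding sequence, held 24 motifs or 7.16 per kb. FXR1 had 10.2 per kb, CAPRIN1 6.58, TIA1 5.18, USP10 5.01 and ATXN2L 4.65. PABPC1 had the fewest, 5 motifs or 2.62 per kb.

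A motif that began from 5 nt upstream to 30 nt downstream was counted as near an event. In G3BP2, 69.2% of the 26 coding events had a motif near (exact interval 48.2 to 85.7%), against 27.8% of all its coding positions. In FMR1 the share was also 69.2% of 26 events (48.2 to 85.7%), against 34.2% of positions. In G3BP1 it was 53.6% of 28 events (33.9 to 72.5%), against 27.8%. In all 3 transcripts the interval lay above the share of positions, which is the value that an even spread of events along the coding sequence would give.

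USP10 with 29.8% of 57 events (18.4 to 43.4%) against 13.8% of positions, and CAPRIN1 with 26.3% of 95 (17.8 to 36.4%) against 16.8%, also had intervals above the even spread. FXR1 (50% of 24 against 33.1%) and TIA1 (33.3% of 6 against 13%, and 0 of 4 without replicate 1) were higher with intervals that included it. UPF1 (15.8% of 76 against 21.6%) and PABPC1 (5.17% of 58 against 9.43%) were lower with intervals that included it. ATXN2L lay below, with 7.69% of 156 events (4.04 to 13.1%) against 14.5% of positions. The events were thus above the even spread in 7 of the 10 genes, 5 of them with intervals above it, and below it in the gene with the most coding events. The share near a motif was not counted in the other protein-coding genes. Whether these counts are particular to the 10 genes is therefore not known.

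**Figure D2:**
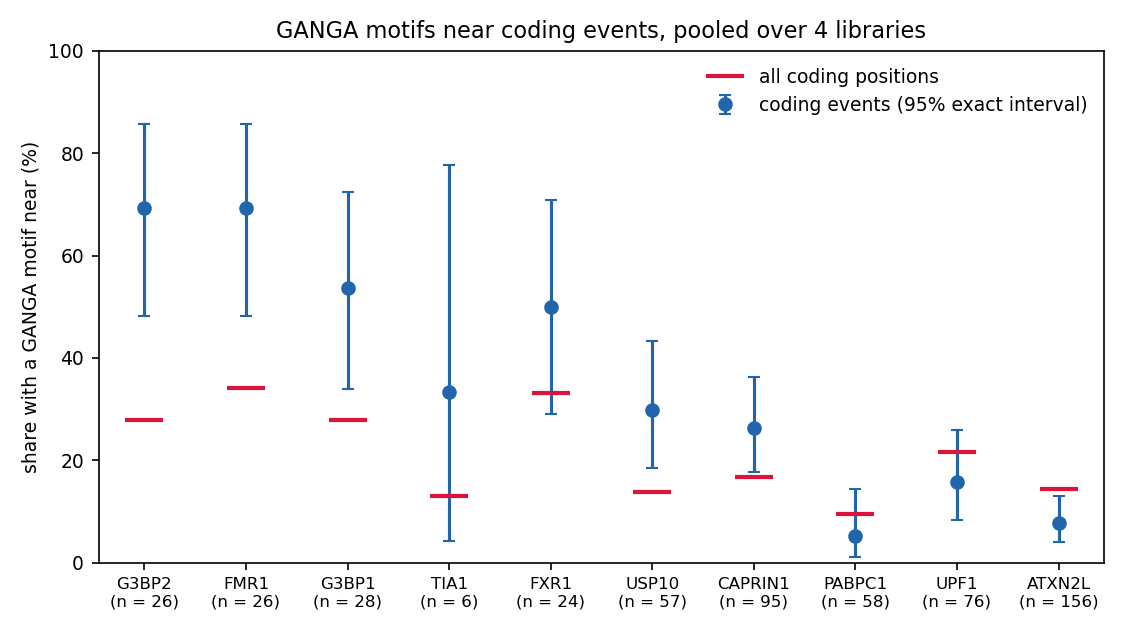
Share of the coding events, pooled over 4 libraries, with a GANGA motif near (blue, with 95% exact binomial intervals) and the share of all coding positions of the same gene with one near (red lines), ordered by the difference. G3BP2, FMR1, G3BP1, USP10 and CAPRIN1 have intervals above the red line and ATXN2L has its interval below.

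Events at the same position are not independent, and replicate 2 gave the most of them. With each position counted once, the share near a motif was 61.9% for G3BP2 (13 of 21 positions), 63.2% for FMR1 (12 of 19), 52.4% for G3BP1 (11 of 21), 23.1% for USP10 (9 of 39), 25.4% for CAPRIN1 (17 of 67) and 10.0% for ATXN2L (10 of 100). Without replicate 2 it was 61.5%, 60% and 55.6% for G3BP2, FMR1 and G3BP1, 21.7% for USP10, 34.9% for CAPRIN1 and 6.85% for ATXN2L. These shares lay on the same side of the even spread as before in each of the 6 genes, but not all intervals did. With each position counted once, the intervals of G3BP2, FMR1 and G3BP1 stayed above the even spread and those of USP10, CAPRIN1 and ATXN2L included it. Without replicate 2, the intervals of G3BP2 (31.6 to 86.1%) and CAPRIN1 (21 to 50.9%) stayed above and those of FMR1, G3BP1, USP10 and ATXN2L included it. Without replicate 1 or 4, the interval of CAPRIN1 included it. G3BP2 was thus the gene whose interval lay above the even spread in each of these counts. By library, G3BP2 had 1 of 2, 10 of 13, 3 of 3 and 4 of 8 coding events near a motif, FMR1 had 6 of 8, 9 of 11, 0 of 0 and 3 of 7, and G3BP1 had 2 of 3, 10 of 19, 0 of 0 and 3 of 6.

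**Figure D3:**
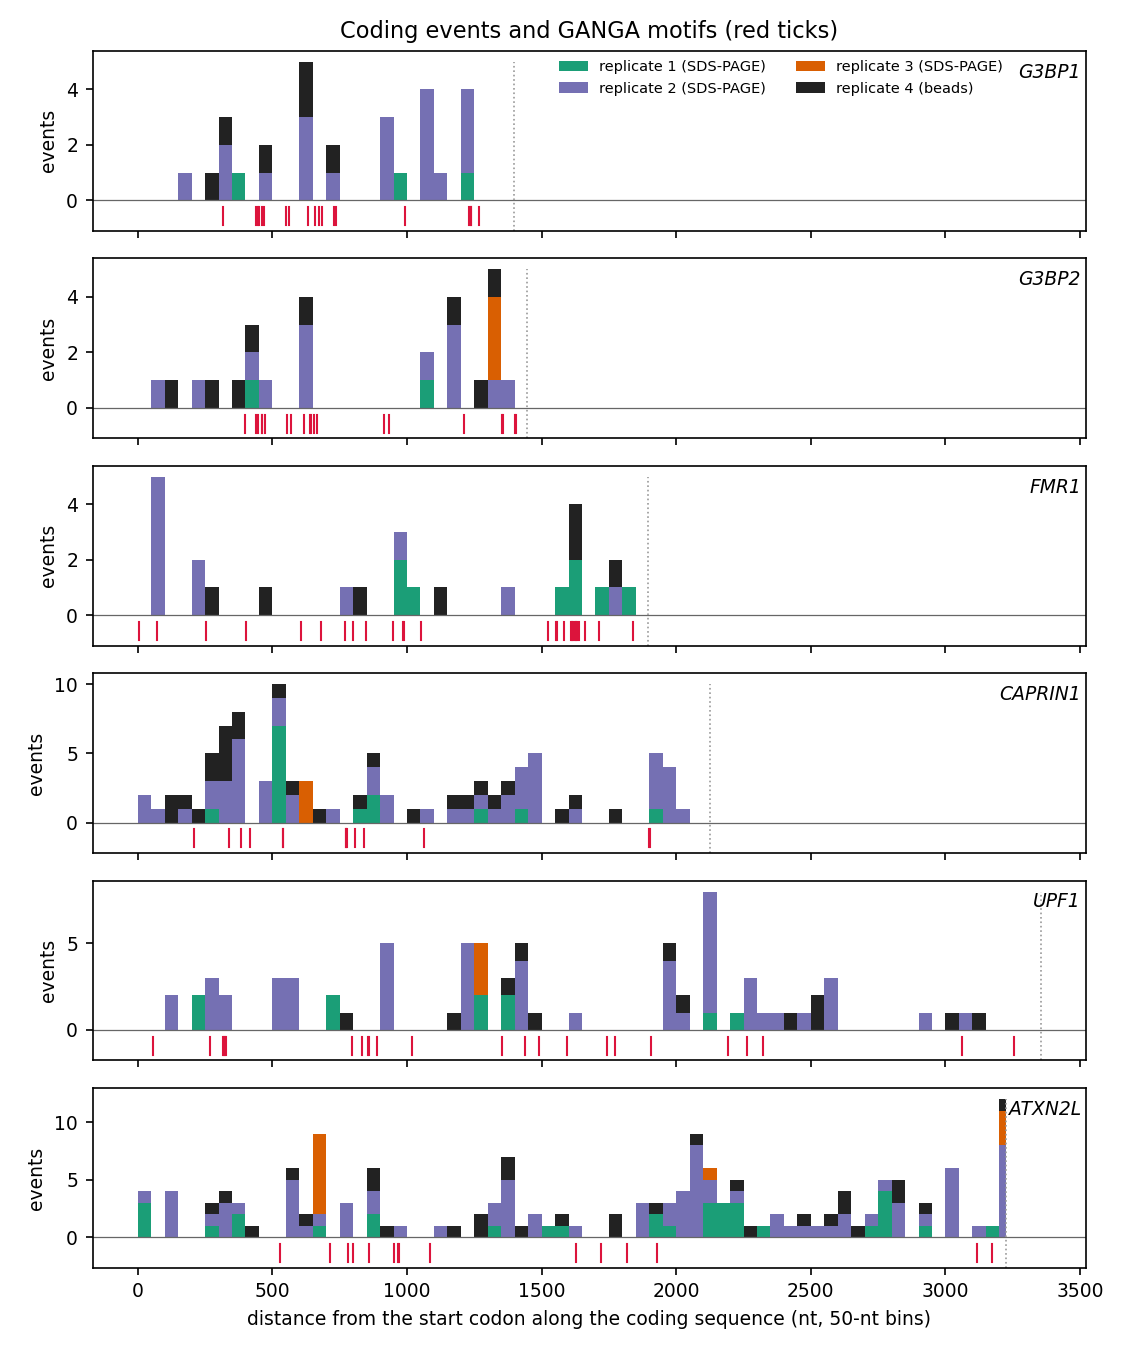
Coding events in 50-nt bins along 6 coding sequences, coloured by library, with the starts of GANGA motifs as red ticks and the stop codon as a dotted line. The horizontal axis is the distance from the start codon in nt and the vertical axis the number of events, scaled for each gene. In G3BP1, G3BP2 and FMR1 no bin exceeds 5 events, whereas ATXN2L reaches 12 in its last bin.

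The coding stretches of 30 nt with the most events, within 1 exon, were looked up in 9 of the genes, PABPC1 being left out, a choice made after the values were seen. A motif was present in 3 of the 9 stretches, and in 16.7% of all 30-nt stretches of the same 9 coding sequences. So few stretches allow no comparison of these shares. The 3 are shown with the motifs in capitals. They lie at chr5:151797308-151797337 (plus strand, exon 7 of G3BP1, with 0, 3, 0 and 2 events in replicates 1 to 4), chrX:147921933-147921962 (plus, exon 2 of FMR1, with 5 events, all from replicate 2) and chr16:84764105-84764134 (plus, exon 10 of USP10, with 0, 8, 0 and 1 events).
G3BP1: atctgaaatccaaGAGGAaaagcctgagcc
FMR1: gcatttgtaaaggatgttcatGAAGAttca
USP10: ccccaaaaaccactcggtcaatGAAGAAGA

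The corresponding stretch of ATXN2L, with 12 events in replicates 2, 3 and 4, lies in exon 22 at the end of the coding sequence (chr16:28836225-28836254, plus strand), and that of CAPRIN1, with 10 events in replicates 1, 2 and 4, in exon 5 (chr11:34076375-34076404, plus strand). Neither stretch holds a GANGA motif, and purines make up 63.3% of the bases of the former and 60% of those of the latter. In CAPRIN1, however, GAAGA begins 538 nt and GAGGA 541 nt from the start codon, just past the stretch, which covers 506 to 535 nt. The most occupied position of CAPRIN1, at 522 nt with 5 cDNAs, thus counted as near a motif.
ATXN2L: tgcaggtggggcaggatgcacgggttctgg
CAPRIN1: aacaaggtttgaatggagtgccaatattgt

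Summed over the 10 coding sequences, 26.7%, 23.4%, 26.1% and 24.2% of the events in replicates 1 to 4 had a GANGA motif near, against 20.5% of the positions. The difference was 4.56 ± 1.58 points (SD, n = 4), above 0 in 4 of 4 libraries. It was 14.3 points without ATXN2L, which gave 156 of the 552 events. The 20.5% counts each gene by its coding length, and with positions weighted by the events of each gene the difference was 6.58 points. For GAAGA alone the difference was 7.64 ± 3.44 points, again in 4 of 4. Codons for glutamate and aspartate made up 13.1%, 12.6%, 17% and 12.2% of the codons in the same windows and 12.1% over all positions, a difference of 1.64 ± 2.24 points that was smaller than its SD and 0.538 without replicate 3. With positions weighted in the same way, the acidic codon difference was 2.46 points.

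Along the transcripts, the coding events of ATXN2L were spread over 100 positions, and its most occupied exon, exon 22, held 14.7% of them, and 9.59% without replicate 2. In USP10, the long exon 4 held 47.4% of the coding events and 43.5% of the coding sequence. Its share of the events was 38.6% without replicate 1 and 65.2% without replicate 2. In PABPC1, exon 1 held 29.3% of the coding events with 10.1% of the coding length, but 12.1% (4 of 33) without replicate 2, and exons 11 to 13 held none. In G3BP2, exon 12 held 42.3% of the coding events with 18.7% of the length. Of the intron events, the first intron of USP10 held 50.4% with 43.5% of the intron length, but 41.6% (42 of 101) without replicate 3. Intron 15 of UPF1 held 26% with 9.0% of the length, with 6, 9, 5 and 5 events in replicates 1 to 4.

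Other lists of the same field were counted in the same way for comparison. Of 34 further stress granule components, 16 had at least 200 events and 24 a pooled cluster, with a median of 190.5 events. The highest were PRRC2A (937), PRRC2B (917) and PRRC2C (770), which encode large disordered proteins of stress granules, and the translation initiation factors EIF4G1 (545) and EIF3A (507). UPF1, the highest of the 10 genes, had fewer events than each of these. Of 17 components of P-bodies, the sites of mRNA decapping and silencing, 4 had at least 200 events, CNOT1 (344), TNRC6A (270), AGO2 (253) and TNRC6B (250), and 5 a cluster, with a median of 107. Of 7 further factors of nonsense-mediated decay, 2 had at least 200, SMG5 (237) and SMG1 (208), and 6 a cluster, with a median of 155. The median of the 10 genes, 109, was close to that of the P-body list. These counts cover whole genes and are not corrected for length. The median gene length was 40542 nt for the 10 genes and 60725 nt for the P-body list. Per length of coding sequence the medians were not close, with 14.3 CPM per kb for the 10 genes and 8.45 for the P-body list. The further stress granule and nonsense-mediated decay lists had higher coding medians than the 10 genes. No test between the lists was made.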

How the data were processed

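The deposited lists of 4 libraries give raw counts, each the number of distinct cDNAs at a stranded position. The authors removed PCR copies with the random barcode, mapped reads to GRCh38 with STAR (version not given in the sources used here) and GENCODE 27, kept unique alignments and took the preceding nucleotide as crosslinked. They called clusters with iCount at a false discovery rate of 0.05, and the deposited cluster values are summed counts.

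Here events on the gene strand were counted with GENCODE 44, regions taking precedence over all transcripts in the order coding sequence, 3′ UTR, 5′ UTR, other exon, intron. CPM used the library totals. Motifs were searched in canonical transcripts, each equal to its reference transcript in 10 of 10 genes. The genes, lists and rules were chosen with earlier results of these data known. All 10 genes are named, and of other lists the genes with at least 200 events, at most 5 per list. Exact two-sided sign-flip tests over 4 libraries cannot give a p below 0.125, so no difference could pass and no p is printed for sums over the genes. Shares have exact binomial intervals. Counting, motif windows and the sign-flip test were tested on simulated data. Alternatives numbered 39 planned and 10 added after the data were seen. Python 3.11.15, numpy 2.4.6, scipy 1.17.1, pysam 0.24.0 and matplotlib 3.10.9 were used. No amino acid sequences were used here.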

Additional observations from a re-analysis of the deposited data

Results flagged for a closer look

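In 3 of 27 sets of 4 libraries, 1 library lay far from the other 3 by Dixon's criterion, which chance meets in about 1 set in 20. FMR1 had 167 CPM in replicate 3 against 53.9, 59.5 and 72.4 in the others, and 19 of its 21 events there lay in the 3′ UTR cluster. The summed level of the 10 genes was 1319 CPM in replicate 4 against 1060, 1042 and 1066, and replicate 4 is the only library purified with beads, so library and purification cannot be told apart. FXR1 had 5.67 CPM per kb of coding sequence in replicate 1, which rests on 4 events, against 11, 11.3 and 10.5.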

How the results depend on the processing

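The number of genes with at least 200 events was 3; it was 5 at a minimum of 100 events, 0 at 400, 0 with each position counted once, and from 0 to 1 with 1 library left out. The 7 genes with a pooled cluster became 1 for clusters of at least 20 cDNAs and 3 in the lists of single libraries. The shares of all protein-coding genes under these other settings were not counted, so the changes cannot be compared with theirs. The difference in coding share, 8.27 points, was -6.72 with UTRs before coding sequence, the only change of direction among the sums, 3.42 inside clusters, and 5.13 to 13 with 1 library left out. The GANGA difference, 4.56 points, was 9.88 inside clusters and 14.3 without ATXN2L, and the acidic codon difference, 1.64, was 2.69 without ATXN2L. The level of TIA1 was 0 without events inside another gene of the same strand, by construction. In the 53 recomputations of the summed level, counts, region, strand and motif results that kept their direction, 44 values were within 1.5 times the reported one and 9 were not. No p could pass with 4 libraries, so stability is not read from the tests. No comparison between groups, paired or not, was possible because all libraries belong to 1 group. The differences in shares and the ratios above were taken within each library. Depth limits the single genes, since replicate 3 had 134 events on the 10 genes.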
